A study of Mus musculus with 12 samples.

Results

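The 10 genes described here were chosen by their germ cell RNA levels, which were higher after dexamethasone (dex), a synthetic glucocorticoid, than after saline in the same libraries that are reported below. They are Gm27252, Gm11639, Gm36634, Arhgef37, Tnfrsf13b, Fyb2, Kcna5, Kif12, Erf and Lpin3, 10 of the 54532 genes in the count table. Because the germ cell contrast chose them, their germ cell values are given as a description with no test. The question asked of them is how large the difference was in each library and whether ovarian somatic cells shared it.

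Bulk RNA-seq was performed on 12 libraries from ovaries of mouse embryos of the strain Tg(Pou5f1-EGFP)2Mnn at embryonic day E15.5, in which a Pou5f1 (OCT4) transgene labels germ cells with GFP. Every dam was injected intraperitoneally, 4 times in all, once daily from E12.5 to E15.5. Dex dams received 10 µg per g of body weight and control dams received saline. Ovaries were freed of mesonephroi, dissociated and sorted, which gave 4 groups of 3 libraries: GFP+ germ cells after dex, GFP+ germ cells after saline, GFP- somatic cells after dex and GFP- somatic cells after saline. All groups carried the transgene, each library pooled ovaries from several litters dosed separately, and the somatic fraction held every GFP- cell type of the ovary. A somatic value is therefore an average over cell types, and fewer cells of a type and less RNA per cell cannot be told apart.

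Glucocorticoids enter the cell and bind the glucocorticoid receptor, a nuclear receptor that then binds DNA as a dimer at palindromic response elements or acts through other transcription factors. Well-known target genes such as Fkbp5, Per1, Zbtb16 and Tsc22d3 respond in many tissues, whereas most induced genes differ from one cell type to the next. At E15.5 the germ cells of the mouse ovary are oocytes in meiotic prophase, and the cells around them include pregranulosa cells, stroma, vessels, blood cells and macrophages. The 10 genes share no pathway. Tnfrsf13b encodes TACI, a receptor for the cytokines BAFF and APRIL that is best known from B cells. Fyb2 encodes an adaptor related to the T cell adaptor ADAP, and Arhgef37 a predicted guanine nucleotide exchange factor for small GTPases. Kcna5 encodes the voltage-gated potassium channel Kv1.5 and Kif12 a kinesin motor. Erf encodes an ETS-domain transcriptional repressor, and Lpin3 a lipin, an enzyme that turns phosphatidate into diacylglycerol. Gm27252 and Gm36634 are annotated as processed transcripts without a coding sequence, and Gm11639 is a predicted protein-coding gene.

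Promoter sequence was examined for 9 of the 10 genes; Arhgef37 was not analysed here. Each window, from RefSeq on GRCm38.p6, runs from 250 bases before the annotated start site to 50 bases after it, and the 9 genes had 11 windows. The RefSeq start of Gm11639, at position 104781209, lies inside the gene as counted, which starts at 104685707. Its window is therefore not at the start of the counted gene. A set of 3 patterns, chosen with the results known, was searched on both strands. The full palindrome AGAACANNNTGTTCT was in 0 of the 11 windows and in 0.00913% of all 32851 windows. The looser palindrome GNACANNNTGTNC, which contains every match of the full one and can overlap the hexamer below, was in 2 of 11, those of Fyb2 and Kcna5, against 0.475% of all windows. The hexamer AGAACA was in 1 of 11, the distal Lpin3 window, against 19% of all. A match is a run of letters and not a measured site, and the absence of one speaks only of these 300 bases. The 2 windows with the looser palindrome are shown for that match, in capitals, with the window of Gm27252, the gene with the largest difference, which had no match. The Fyb2 window is chr4:104913311-104913610 on the plus strand, with the match at positions -247 to -235, the start site being 0. The Kcna5 window is chr6:126535506-126535805 on the minus strand, with the match at positions -59 to -47. The Gm27252 window is chr7:63896134-63896433 on the plus strand. All are written 5′ to 3′ on the strand of the gene.
Fyb2: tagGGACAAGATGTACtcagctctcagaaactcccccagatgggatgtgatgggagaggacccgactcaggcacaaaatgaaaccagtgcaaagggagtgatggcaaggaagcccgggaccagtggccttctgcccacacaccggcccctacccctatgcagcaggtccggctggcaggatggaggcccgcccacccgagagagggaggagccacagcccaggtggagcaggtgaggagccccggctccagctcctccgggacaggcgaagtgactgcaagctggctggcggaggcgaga
Kcna5: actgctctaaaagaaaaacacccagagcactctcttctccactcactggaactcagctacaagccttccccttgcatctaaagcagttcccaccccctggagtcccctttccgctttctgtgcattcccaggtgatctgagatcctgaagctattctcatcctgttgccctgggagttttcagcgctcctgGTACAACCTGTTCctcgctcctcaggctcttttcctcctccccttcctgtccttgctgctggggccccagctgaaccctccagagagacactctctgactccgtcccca
Gm27252: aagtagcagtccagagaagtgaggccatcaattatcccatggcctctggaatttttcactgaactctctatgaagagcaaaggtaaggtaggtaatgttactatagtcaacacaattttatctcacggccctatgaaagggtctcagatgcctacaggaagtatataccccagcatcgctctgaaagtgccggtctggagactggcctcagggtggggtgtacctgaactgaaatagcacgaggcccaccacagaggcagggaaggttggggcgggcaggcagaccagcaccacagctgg

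Before the individual genes, some facts of the libraries bear on the values. Germ cell libraries held 14658503 to 17616664 counts and somatic libraries 15161804 to 18245507. A list of 7 germ cell markers (Pou5f1, Ddx4, Dazl, Dppa3, Sycp3, Stra8 and Tex14) summed to 2230 to 2630 CPM in germ cell libraries, 4.66 to 7.04 in somatic saline and 17 to 23.2 in somatic dex libraries, where Pou5f1 and Dppa3 had 0 counts. Levels are in CPM, the count scaled to the library total after TMM correction, and a count of 3, taken as the floor, equalled 0.169 to 0.2008 CPM. For 10 of 10 genes, by their choice, the germ cell groups did not overlap, with all 3 germ dex libraries above all 3 germ saline libraries, and 7.93% of the 16857 genes tested in germ cells did so. In the edgeR comparison of dex with saline, 9 of the 10 passed the low-count filter in germ cells, and all 9 were among the 15 genes called higher (0.089% of genes tested). That follows from their choice for a rise in these same libraries. In 12 alternative analyses Gm27252, Arhgef37, Tnfrsf13b and Erf stayed among the genes called in all 12, while Kcna5 dropped out in 1, Gm36634 and Fyb2 in 3 each, Gm11639 in 5 and Lpin3 in 8. These alternatives reuse the libraries that chose the genes. They describe how the calls depend on the settings and give the differences no support. Kif12 did not pass the low-count filter in germ cells, so the germ cell shares over genes tested do not cover it. In somatic cells 7 of the 10 passed the filter, and 1, Gm27252, was called higher, where 4.81% of the 16556 genes tested were. Somatic dex lay above somatic saline in every library for 3 of the 10 genes (Gm27252, Arhgef37 and Fyb2), and the groups overlapped for the other 7. The share over the 16556 genes tested was 13.5%. That share covers only genes past the somatic filter, which Arhgef37, Gm36634 and Gm11639 did not pass.

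**Figure D1:**
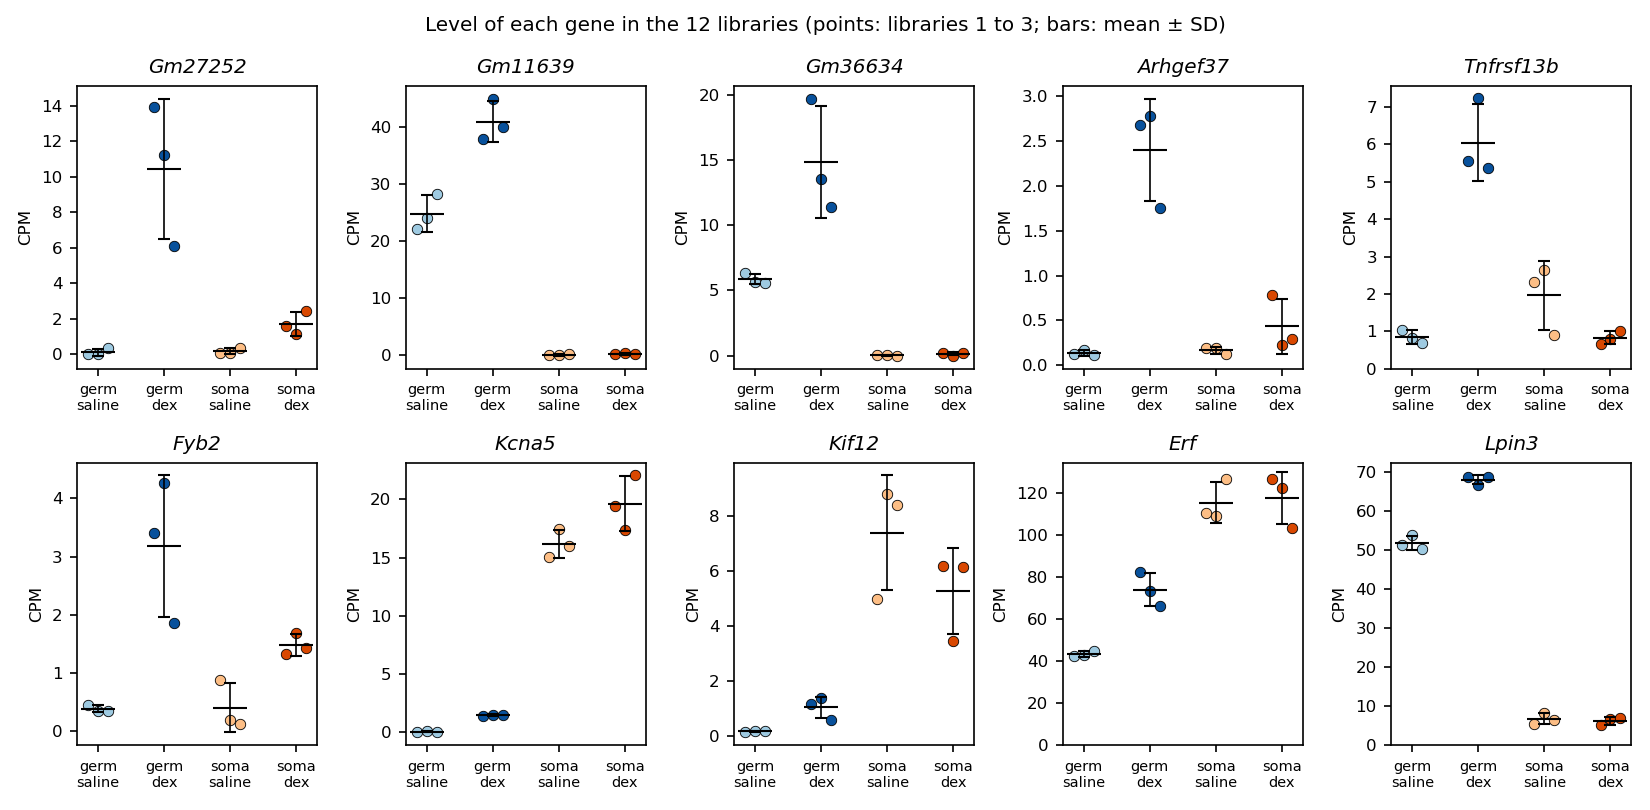
CPM of each of the 10 genes in the 12 libraries, with 3 libraries per group as points and the group mean ± SD as bars, each panel on its own linear axis. The germ dex points lie above the germ saline points in all 10 panels, and the somatic points are the higher ones for Kcna5, Kif12 and Erf.

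Tnfrsf13b was higher in germ cells after dex and not in somatic cells. In germ cells it read 1.03, 0.816 and 0.686 CPM in saline libraries 1 to 3 and 5.56, 7.24 and 5.36 CPM in dex libraries 1 to 3. In somatic cells it read 2.33, 2.64 and 0.910 CPM after saline and 0.665, 0.789 and 1.01 CPM after dex. The germ cell groups were far apart, with the lowest dex library 5.19 times the highest saline library, while the somatic groups overlapped through saline library 3. The germ cell log2 fold change was 2.84 (SE 0.28, n = 3 per group). The somatic one was -1.25 (SE 0.47) and did not pass the test (edgeR, adjusted p = 0.135). The germ cell mean thus went from 43.1% of the somatic mean after saline to 737% after dex. The gene lies at chr11:61126755-61149372 on the plus strand.

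B cell RNA was looked for beside Tnfrsf13b. A list of 8 B lymphocyte and plasma cell markers summed to 7.71 to 11 CPM in germ saline and 10.1 to 12.4 CPM in germ dex libraries, and to 4.15 to 5.04 and 2.66 to 4.22 CPM in the somatic groups. Most of the germ cell sum came from Jchain (209 counts after saline and 279 after dex, over 3 libraries), Pax5 (148 and 164) and Cd79a (67 and 97). Other markers of the list were at or near 0 in germ cells: Blk had 0 counts in both groups, Cd22 had 3 and 0, Cd79b had 1 and 3, and Ms4a1 had 7 and 5. Tnfrsf13b had 42 and 287 counts in the same libraries. In somatic cells a list of 8 macrophage markers, all with counts, summed to 182 to 243 CPM after saline and 51.9 to 131 CPM after dex, while in germ cells it read 32.5 to 43.7 and 35.9 to 49.1 CPM. Most of that germ cell sum came from Mrc1, with means of 31.5 CPM after saline and 33.8 after dex. The next highest macrophage marker there was Csf1r, at 2.67 and 2.57 CPM. The part of these cells in the Tnfrsf13b values was not tested.

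Genes around TACI did not pass the test in germ cells. Of 9 listed ligands, sister receptors and signalling proteins, 8 were in the table, 6 were tested and 0 were called in germ cells by edgeR or DESeq2 (1 at an unadjusted p under 0.05, Tnfrsf13c), with a median log2 fold change of 0.08 against 0.014 over all genes tested. Tnfrsf13c, the BAFF receptor, was itself a germ cell transcript, with 5.43 ± 1.29 CPM after saline and 8.26 ± 2.17 after dex (log2 fold change 0.61, SE 0.24, adjusted p = 0.367 in edgeR), against 0.0622 and 0.0991 CPM in somatic cells. The ligand gene Tnfsf13 (APRIL) read 3.14 ± 0.611 and 3.65 ± 0.463 CPM in germ cells. Tnfsf13b (BAFF) was at 0.284 and 0.109 CPM there, and at 3.93 ± 0.281 and 6.37 ± 0.906 CPM in somatic cells after saline and dex. In somatic cells Traf3, which restrains signalling from these receptors, was the 1 of 6 tested genes called, and it fell by 0.33 on the log2 scale (SE 0.08, adjusted p = 0.0206 in edgeR). That call was lost when any somatic library other than dex library 3 was left out (5 of 12 alternatives, adjusted p 0.0592 to 0.0835).

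Fyb2 was higher after dex in every library of both cell types, and the somatic difference did not pass the test. In germ cells it read 0.452, 0.350 and 0.343 CPM in saline libraries 1 to 3 and 3.41, 4.26 and 1.87 CPM in dex libraries 1 to 3. Somatic saline libraries read 0.881, 0.193 and 0.121 CPM and somatic dex libraries 1.33, 1.69 and 1.43 CPM. Neither pair of groups overlapped, and the dex libraries of germ cells spread more widely (2.29 times from lowest to highest) than those of somatic cells (1.27 times). The log2 fold change was 3.05 (SE 0.42) in germ cells and 1.88 (SE 0.60, adjusted p = 0.0787 in edgeR) in somatic cells. Leaving out somatic saline library 1, the highest of that group with 14 of its 19 counts, gave 3.17 in somatic cells, past the threshold (adjusted p = 0.0182 in edgeR, range over all alternatives 0.0176 to 0.283). Of the 7 genes tested in somatic cells, Fyb2 had the lowest adjusted p after Gm27252. It spans chr4:104913456-105016863 on the plus strand.

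Among the 4 genes of the ADAP complex, 0 were called in germ cells by edgeR or DESeq2 (4 tested, 0 at an unadjusted p under 0.05, median log2 fold change 0.10). The paralog Fyb was called in somatic cells, in the opposite direction to Fyb2: it read 4.52 ± 0.393 CPM after saline and 1.85 ± 0.871 after dex, and fell by 1.29 on the log2 scale (SE 0.35, adjusted p = 0.0367 in edgeR). That call was lost in 6 of 12 alternatives, with all 12 libraries in one fit (0.147) and without any somatic library other than dex library 3 (adjusted p 0.0508 to 0.123). In germ cells Fyb was at 0.524 ± 0.489 and 0.646 ± 0.310 CPM.

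Arhgef37 was close to the floor everywhere but in germ cells after dex. It had 2, 3 and 2 counts in germ saline libraries 1 to 3, and 40, 43 and 30 in germ dex libraries. Somatic saline libraries had 3, 3 and 2 counts and somatic dex libraries 13, 4 and 5. All 3 germ saline libraries and all 3 somatic saline libraries were at or under the floor, whereas germ dex reached 2.40 ± 0.568 CPM and somatic dex 0.436 ± 0.305 CPM. From pooled counts scaled to depth, the ratio of dex to saline was 17 in germ cells (95% exact interval 7.99 to 43.3) and 2.58 in somatic cells (1.10 to 6.69). These intervals cover counting error only. The somatic groups did not overlap, but library 1 held 13 of the 22 dex counts, and the gene did not pass the somatic low-count filter. Without that filter the somatic log2 fold change was 1.32 (SE 0.99, adjusted p = 0.603 in edgeR, and 0.306 with all 12 libraries in one fit). Of 5 relatives and small GTPases, Arhgef38, Dnmbp, Rhoa, Rac1 and Cdc42, 4 were tested and 0 were called in either cell type by edgeR or DESeq2 (in germ cells Rac1 alone had an unadjusted p under 0.05, in somatic cells 0 did). The gene lies on chromosome 18, minus strand.

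Kcna5 was a somatic transcript that appeared in germ cells after dex. Germ saline libraries 1 to 3 had 0, 1 and 1 counts and germ dex libraries 21, 23 and 26. Somatic saline libraries read 15.04, 17.4 and 16.02 CPM and somatic dex libraries 19.4, 17.4 and 22.1 CPM. The germ dex libraries were close to each other, at 36.5, 38.6 and 39.4 times the saline mean, while the somatic groups overlapped slightly. The ratio of pooled counts was 36.9 in germ cells, with a wide 95% exact interval of 9.84 to 311 because the saline group held 2 counts. In somatic cells the log2 fold change was 0.28 (SE 0.13, adjusted p = 0.235 in edgeR). Even after dex the germ cell mean of 1.47 ± 0.057 CPM was 7.49% of the somatic mean, up from 0.238% after saline. The gene is a single exon at chr6:126532551-126535412 on the minus strand, and its promoter window with the looser palindrome is printed above.

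Since Kcna5 and Kif12 RNA was higher in somatic cells, the markers of somatic cells were read beside them. As a share of their summed somatic level, germ cell libraries held 0.652% of stromal markers after saline and 0.700% after dex, 0.939% and 1.06% of perivascular markers, 6.52% and 8.43% of pregranulosa markers, 6.90% and 8.83% of endothelial markers, 0.377% and 0.314% of erythroid markers, and 25.1% and 20.8% of epithelial markers. All 6 stromal, 8 pregranulosa, 5 endothelial, 5 perivascular and 6 epithelial markers had counts in both germ cell groups, and 6 and 5 of the 6 erythroid ones. In germ cells pregranulosa markers summed to 59.2 to 98.6 CPM after saline and 47.8 to 135 after dex, stromal markers to 93.6 to 167 and 116 to 224, and endothelial markers to 20.6 to 23.6 and 23.8 to 25.8. The Kcna5 share was below the summed pregranulosa and endothelial shares after saline and close to them after dex. The endothelial markers did not move together in germ cells. Pecam1 went from a mean of 9.47 CPM after saline to 15.9 after dex. The others fell: Cdh5 from 8.92 to 6.99, Kdr from 2.63 to 1.64, Tie1 from 0.354 to 0.254 and Emcn from 0.349 to 0.0806. Kcna5 was chosen for its rise in these germ cell libraries, so the size of its change cannot be weighed against that of marker lists. Of the lists not named here, the macrophage share went from 17.8% after saline to 41.3% after dex. The T lymphocyte and natural killer share went from 27.7% to 35.3%, and the B lymphocyte and plasma cell share from 186% to 353%. Whether somatic RNA in the sorted germ cells contributed to the Kcna5 and Kif12 values was not tested.

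**Figure D2:**
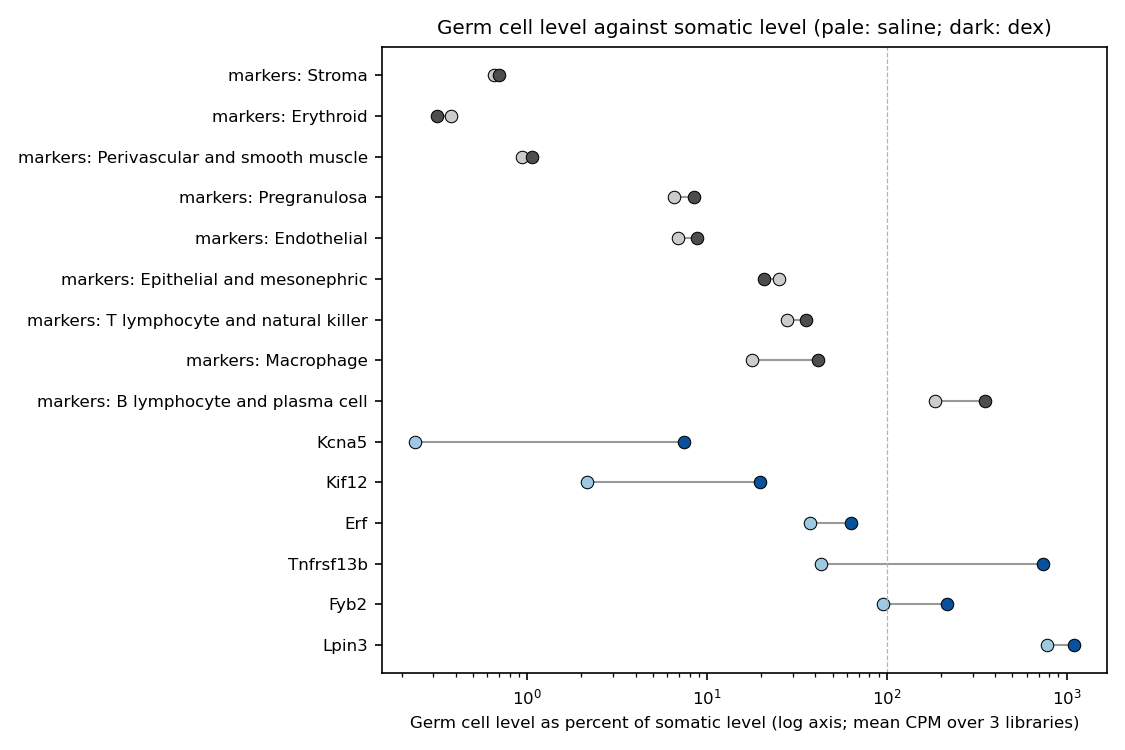
Mean germ cell CPM as a percent of mean somatic CPM (log axis, 3 libraries per group), after saline in pale and after dex in dark symbols, for the summed marker lists of 9 other cell types in grey and 6 of the genes in blue. Kcna5 moves from 0.238% to 7.49% and Tnfrsf13b from 43.1% to 737%, and both were chosen for their germ cell rise. The stromal markers stay at 0.652% and 0.700%, and the macrophage markers move from 17.8% to 41.3%. Gm27252, Arhgef37, Gm11639 and Gm36634 are left out, since their mean somatic saline level was under the floor.

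Kif12 followed the same outline with a smaller difference and lower counts. It had 2, 3 and 3 counts in germ saline libraries 1 to 3 and 17, 21 and 10 in germ dex libraries, so that 0.159 ± 0.0254 CPM became 1.03 ± 0.399 CPM. Somatic saline libraries read 4.97, 8.77 and 8.37 CPM and somatic dex libraries 6.16, 3.44 and 6.12 CPM. The germ cell groups did not overlap and the somatic ones did. The ratio of pooled counts in germ cells was 6.32 (95% exact interval 2.965 to 15.48). The somatic log2 fold change was -0.50 (SE 0.27, adjusted p = 0.315 in edgeR). The germ cell mean was 2.15% of the somatic mean after saline and 19.6% after dex. Kif12 lies at chr4:63165630-63172131 on the minus strand.

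The other Kv1 channel genes were not called in germ cells. Of 10 listed channel and beta subunit genes, 5 were tested in germ cells and 0 were called by edgeR or DESeq2 (0 at an unadjusted p under 0.05), with a median log2 fold change of -0.03. Kcna3 read 0.617 ± 0.0314 CPM after saline and 0.648 ± 0.160 after dex, and Kcna2 1.93 ± 0.621 and 1.88 ± 0.472 CPM. Kcna6, like Kcna5 mainly a somatic transcript (15 ± 0.436 CPM after saline), stayed around the floor in germ cells, at 0.179 and 0.0856 CPM.

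Erf was expressed in all libraries and had the highest somatic level of the 10 genes per length (31 ± 2.62 FPKM after saline). Germ saline libraries 1 to 3 read 42.2, 43.0 and 44.9 CPM and germ dex libraries 82.1, 73.5 and 66.3 CPM. Somatic saline libraries read 110.5, 109.0 and 126.4 CPM and somatic dex libraries 126.7, 122.4 and 103.2 CPM. The germ cell groups were well separated, whereas the somatic groups covered the same range. The log2 fold change was 0.78 (SE 0.09) in germ cells and 0.02 (SE 0.08, adjusted p = 0.919 in edgeR) in somatic cells. Erf remained lower in germ than in somatic cells, at 37.6% of the somatic mean after saline and 63.0% after dex. It lies at chr7:25242561-25250761 on the minus strand.

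Of 14 genes around Erf, among them the ETS factors Etv3 to Etv6 and the signalling inhibitors Dusp6, Spry2 and Spry4, all were tested and 0 were called in germ cells by edgeR or DESeq2 (0 at an unadjusted p under 0.05, median log2 fold change 0.10). In somatic cells 1 of the 14, Ets2, was called higher, by 0.36 (SE 0.06, adjusted p = 0.00293 in edgeR, and 0.0501 with all 12 libraries in one fit).

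Lpin3 had the smallest germ cell difference and the closest germ dex replicates of the 10 genes. Germ saline libraries 1 to 3 read 51.4, 53.9 and 50.2 CPM and germ dex libraries 69.0, 66.8 and 68.7 CPM. Somatic saline libraries read 5.41, 8.19 and 6.49 CPM and somatic dex libraries 5.07, 6.70 and 6.84 CPM. The lowest germ dex library was 1.24 times the highest germ saline library, and the somatic groups overlapped. The log2 fold change was 0.40 (SE 0.07) in germ cells and -0.11 (SE 0.21, adjusted p = 0.819 in edgeR) in somatic cells. Lpin3 was a germ cell transcript already after saline, at 774% of the somatic mean. It lies at chr2:160880670-160906002 on the plus strand.

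The sister lipins and the enzymes around them did not pass the test in germ cells. All 12 listed genes of the glycerol phosphate pathway were tested there, edgeR called 0 and DESeq2 called 1, Dgat2, the only one at an unadjusted p under 0.05 in edgeR, and the median log2 fold change was -0.05. Lpin1 read 101 ± 8.61 CPM after saline and 93.4 ± 6.38 after dex, and Lpin2 177 ± 8.07 and 177 ± 14.4 CPM. In somatic cells Dgat2, which makes triglyceride from diacylglycerol, rose by 2.35 on the log2 scale (SE 0.11, adjusted p = 2.65e-08 in edgeR), from 11.6 ± 1.22 to 59.6 ± 4.60 CPM. In germ cells Dgat2 read 56.0 ± 2.66 and 43.6 ± 2.94 CPM, a log2 fold change of -0.35 (SE 0.08, adjusted p = 0.137 in edgeR). Agpat4 rose and Dgat1 fell in somatic cells (log2 fold changes 0.43 and -0.51, edgeR adjusted p = 0.0427 and 0.014). The Agpat4 call was lost in 7 of 12 alternatives, among them each left-out library except dex library 3, and the Dgat1 call without saline library 2 or 3 (adjusted p 0.0539 and 0.0809).

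Gm27252 had the largest germ cell difference of the 10 genes and was the only 1 of the 7 tested to pass in somatic cells. Germ saline libraries 1 to 3 had 0, 0 and 6 counts and germ dex libraries 208, 174 and 105. Somatic saline libraries had 1, 1 and 6 counts and somatic dex libraries 26, 20 and 41. Neither pair of groups overlapped, and library 3 was the highest saline library in both cell types. In CPM, germ cells went from 0.114 ± 0.198 to 10.4 ± 3.96 and somatic cells from 0.164 ± 0.173 to 1.71 ± 0.667. The ratio of pooled counts was 85.5 in germ cells (95% exact interval 39.0 to 234) and 10.2 in somatic cells (4.95 to 24.3). The germ cell log2 fold change was 6.37 (SE 0.61), and 10.39 without germ saline library 3, which held all 6 saline counts. The somatic log2 fold change of 3.30 (SE 0.65, adjusted p = 0.00621 in edgeR) was past the threshold in 12 of 12 alternative analyses. Somatic dex reached 16.4% of the germ dex level. In the same somatic libraries 7 germ cell markers summed to 0.247% of their germ cell level after saline and 0.870% after dex, the latter mostly Dazl, which had 652 counts in the 3 somatic dex libraries and 56 in the saline ones. Their part in the somatic Gm27252 values was not tested.

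Gm27252 lies at chr7:63896533-63899698 on the plus strand, inside Klf13, a Krüppel-like zinc finger gene on the opposite strand, with 0 shared exon bases. Klf13 rose in somatic cells by 1.27 on the log2 scale (SE 0.08, adjusted p = 3.15e-07 in edgeR), from 54.4 ± 4.04 to 132 ± 12.1 CPM. In germ cells it read 40.0 ± 2.41 and 53.0 ± 3.25 CPM, a log2 fold change of 0.41 (SE 0.08) that missed the threshold in edgeR (adjusted p = 0.0844) and was called by DESeq2. The fold change of Gm27252 was larger in germ cells by point estimate and that of Klf13 in somatic cells, and neither difference was tested. How the counting treated strand was not stated, so reads from unspliced Klf13 RNA cannot be told apart from Gm27252.

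Gm36634 was a germ cell transcript after saline and after dex. Germ saline libraries 1 to 3 read 6.33, 5.65 and 5.60 CPM and germ dex libraries 19.7, 13.5 and 11.4 CPM. Somatic cells had 2 counts in the 3 saline libraries together and 7 in the 3 dex libraries. The germ cell groups did not overlap, and the somatic level, 0.724% of the germ cell level after saline and 0.943% after dex, stood beside 0.247% and 0.870% for the germ cell markers. The germ cell log2 fold change was 1.35 (SE 0.21). A somatic difference was not detectable at this depth, and the gene did not pass the somatic filter.

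The nearest neighbour of Gm36634 was also called higher in germ cells. In the annotation of the count table Gm36634 lies at chr12:55497721-55499951 on the plus strand, 5074 bases from Nfkbia, which encodes the NF-kB inhibitor IkB alpha and runs the other way. RefSeq places a start of Gm36634 at position 55493295, which is 648 bases from the Nfkbia start at position 55492647. Nfkbia rose in germ cells by 0.99 on the log2 scale (SE 0.10, adjusted p = 0.00133 in edgeR), from 19.6 ± 1.40 to 38.6 ± 1.41 CPM. In somatic cells it read 94.7 ± 8.02 and 102 ± 6.18 CPM, a log2 fold change of 0.10 (SE 0.08, adjusted p = 0.524 in edgeR). Whether Nfkbia differed between the cell types was not tested. The 2 divergent promoter windows are shown because both genes were higher after dex in germ cells. They are chr12:55493045-55493344 on the plus strand for Gm36634 and chr12:55492598-55492897 on the minus strand for Nfkbia, and none of the 3 patterns was found in either. Each is written 5′ to 3′ on its own strand.
Gm36634: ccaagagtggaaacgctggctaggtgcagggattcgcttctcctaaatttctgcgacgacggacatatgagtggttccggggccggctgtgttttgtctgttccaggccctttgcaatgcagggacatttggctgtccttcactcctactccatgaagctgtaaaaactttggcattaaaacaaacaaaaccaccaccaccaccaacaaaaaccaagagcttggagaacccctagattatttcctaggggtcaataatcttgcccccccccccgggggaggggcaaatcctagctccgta
Nfkbia: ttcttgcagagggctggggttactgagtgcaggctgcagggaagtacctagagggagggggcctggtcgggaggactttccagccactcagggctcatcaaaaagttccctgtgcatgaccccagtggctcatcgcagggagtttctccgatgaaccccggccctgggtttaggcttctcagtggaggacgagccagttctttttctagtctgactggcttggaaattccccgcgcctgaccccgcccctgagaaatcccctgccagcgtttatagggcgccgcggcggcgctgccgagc

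Gm11639 was likewise confined almost entirely to germ cell libraries. The germ saline libraries read 22.1, 24.0 and 28.3 CPM, in order, and the germ dex libraries 37.8, 44.9 and 40.0 CPM. Somatic libraries had 0, 1 and 5 counts after saline and 4, 8 and 3 after dex. The lowest germ dex library was 1.33 times the highest saline library, and the somatic groups overlapped at the floor. The germ cell log2 fold change was 0.73 (SE 0.11). The somatic level was 0.494% and 0.709% of the germ cell level after saline and dex, and the gene did not pass the somatic filter. Gm11639 spans chr11:104685707-105117394 on the plus strand, and 2157 of its 17907 exon bases (12%) are shared with Efcab3 on the same strand, so its counts are uncertain there. Efcab3 itself read 0.115 CPM after saline and 0 after dex in germ cells.

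Outside Gm36634 and Nfkbia, the genes next to the 10 were not called in germ cells by edgeR. A list of 30 neighbours was made, the genes overlapping each of the 10 and the nearest on each side. Of these, 12 had enough counts to be tested in germ cells, with log2 fold changes from -0.23 to 0.99 (median 0.12), and 1, Nfkbia, was called higher. Gsk3a and Cic, on either side of Erf, were at 0.15 (SE 0.09) and 0.04 (SE 0.08). Csnk1a1 beside Arhgef37 was at -0.06 (SE 0.06), Usp22 beside Tnfrsf13b at -0.10 (SE 0.07) and Prkaa2 beside Fyb2 at -0.05 (SE 0.15). Col27a1 beside Kif12 was at 0.51 (SE 0.25, adjusted p = 0.462 in edgeR). In somatic cells 12 neighbours were tested and 1, Klf13, was called higher.

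**Figure D3:**
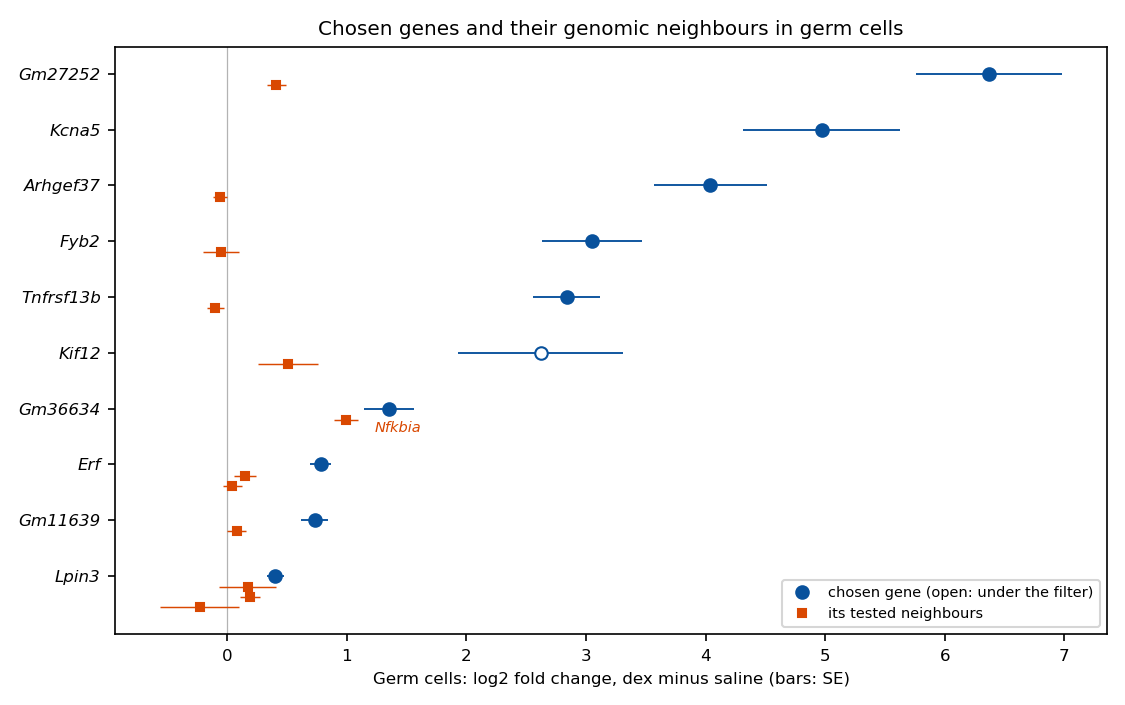
Log2 fold change of dex against saline in germ cells for each of the 10 genes (blue, open where the low-count filter was not passed) and for its tested neighbours (orange), with SE bars from 3 libraries per group. Nfkbia, at 0.99, is the neighbour farthest to the right, and the other neighbours lie between -0.23 and 0.51.

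Set side by side, the 2 cell types gave unlike values for most of the genes. The difference of log2 fold changes, germ minus somatic, was 4.69 (SE 0.67) for Kcna5, 4.09 (SE 0.54) for Tnfrsf13b, 3.13 (SE 0.74) for Kif12, 3.07 (SE 0.89) for Gm27252 and 2.72 (SE 1.10) for Arhgef37. It was 1.17 (SE 0.74) for Fyb2, 0.76 (SE 0.12) for Erf and 0.51 (SE 0.22) for Lpin3. For Gm36634 (-0.20, SE 1.76) and Gm11639 (-0.45, SE 1.2) the SE was wider than the difference. These differences contain the germ cell values that chose the genes, so they are a description. Their SE takes the germ and somatic libraries as independent, although both cell types may come from the same ovaries. For Kif12 the germ cell term came from the fit without the low-count filter, as did the somatic term of Arhgef37, Gm36634 and Gm11639. The SE of those terms is not on the same scale as that of the filtered fits. In the germ dex libraries Kcna5, Kif12 and Erf were below every somatic dex library, and the other genes were above. After saline, only Gm11639, Gm36634 and Lpin3 were above every somatic library. The share of all genes that separate in this way between the cell types was not computed, so this describes levels only.

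The glucocorticoid receptor target list was called mostly in somatic cells. Of 20 listed targets, 16 were tested in germ cells and 4 were called higher, Zbtb16, Per1, Hif3a and Nfkbia, with a median log2 fold change of 0.46 over the list. In somatic cells 18 were tested and 14 were called higher, with a median of 1.02. None was called lower in either. Over all genes tested, 0.089% were called higher in germ cells and 4.81% in somatic cells. The list was put together with results of these data known, so its counts describe the list and are no test of receptor targets. Of the 14 somatic calls, 3 were lost with all 12 libraries in one fit, those of Mt1, Sgk1 and Anxa1 (adjusted p = 0.069, 0.119 and 0.297 in edgeR). That of Sgk1 was also lost without soma dex library 1 or 2 or soma saline library 1 or 3, and that of Anxa1 without soma dex library 1 or 2 or soma saline library 2 or 3. Per1 rose by 1.91 (SE 0.16, adjusted p = 0.000906 in edgeR) in germ cells and 1.68 (SE 0.10, adjusted p = 2.24e-07) in somatic cells. Zbtb16, which encodes the transcription factor PLZF, rose by 2.96 (SE 0.46, adjusted p = 0.0249 in edgeR) and 6.94 (SE 0.25, adjusted p = 4.33e-09). The germ cell call of Zbtb16 was lost without germ dex library 2 or 3 or germ saline library 3 (adjusted p 0.112 to 0.145). Klf9 rose by 3.16 (SE 0.13) in somatic cells and was at 0.23 (SE 0.22, adjusted p = 0.720 in edgeR) in germ cells. Besides these 4 targets and the 9 chosen genes, the genes called higher in germ cells were Hdc, for histamine synthesis (log2 fold change 2.39, SE 0.41), and CT010467.1 (0.56, SE 0.06).

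**Figure D4:**
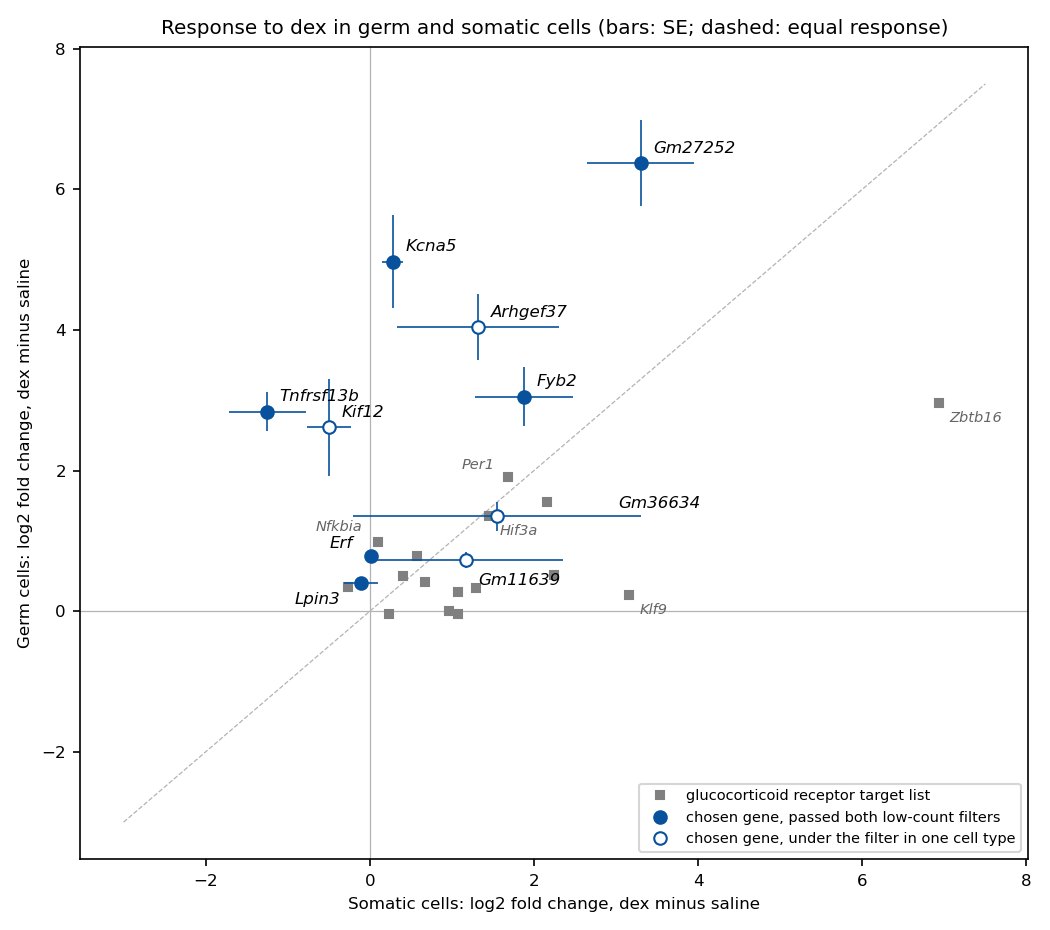
Log2 fold change of dex against saline in germ cells (vertical axis) and somatic cells (horizontal axis) for the 10 genes (blue, SE bars, open where the low-count filter was not passed in a cell type) and the tested receptor targets (grey). Kcna5, Tnfrsf13b, Kif12, Arhgef37, Fyb2, Gm27252, Erf and Lpin3 lie above the dashed line of equal response, and Zbtb16 and Klf9 lie below it. Gm36634 and Gm11639 lie below the line by less than their SE.

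Relatives of the chosen genes gave 0 edgeR calls in germ cells. Over the 8 lists of paralogs, partners and host genes above, 58 genes in all, 49 were tested in germ cells, 0 were called by edgeR, 2 by DESeq2 (Dgat2 and Klf13) and 5 had an unadjusted p under 0.05 in edgeR, with a median log2 fold change of 0.01. In somatic cells 4 of 49 were called higher and 3 lower, where 4.81% of all genes tested were called higher and 3.36% lower. The lists were put together with results of these data known.

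Levels can be compared between the genes only per length, and FPKM, which divides the fragment count by gene length and depth, gives the order. In germ cells after dex, Erf was highest at 20.5 ± 1.83 FPKM, followed by Lpin3 at 18.4 ± 0.355, Gm27252 at 14.5 ± 5.30 and Gm36634 at 11.8 ± 3.18. Within this group the mean ± SD of each gene overlapped that of the next. Gm11639 (2.29 ± 0.230) and Tnfrsf13b (2.13 ± 0.377) formed the next pair, which did not differ beyond their spread. Fyb2 (1.01 ± 0.386) and Arhgef37 (0.741 ± 0.170) overlapped too, and Kcna5 (0.513 ± 0.0291) and Kif12 (0.301 ± 0.116) came last. Gm27252, with a short exon length of 717 bases, was thus near the level of Erf and Lpin3 after dex, from 0.163 ± 0.281 FPKM after saline. After saline the order was Lpin3, Erf, Gm36634 and Gm11639, and the other 6 genes were at or below 0.301 FPKM.

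The dex replicates were not alike. Germ dex library 3 was the lowest of its group for 7 of the 10 genes. Library 2 was the highest for 5 and library 1 for 4. Gm27252 was 122, 98.4 and 53.6 times its saline mean in libraries 1 to 3, Fyb2 8.95, 11.2 and 4.89 times, and Lpin3 1.33, 1.29 and 1.33 times. Pregranulosa markers in the same libraries were at 4.12%, 11.6% and 9.52% of their somatic level, and stromal markers at 0.595%, 0.993% and 0.512%. The part of these markers in the differences between replicates was not tested.

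Other genes with a like pattern were ranked by Pearson correlation with the mean standardised profile of the 10 genes over the 12 libraries, among 18261 genes. The closest were Sertad2 (r = 0.932), 5830462I19Rik (0.857), Mfsd6l (0.837), Kri1 (0.826) and Gm12941 (0.823). The ranking is a description, since the libraries share their cell type and treatment. Sertad2 read 59.2 ± 2.01 CPM in germ saline, 73.0 ± 0.849 in germ dex, and 62.5 in both somatic groups. Mfsd6l went from 0.277 ± 0.164 to 1.72 ± 0.0740 CPM in germ cells and had 0.0417 and 0.0792 CPM in somatic cells.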

How the data were processed

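Libraries were made from poly-A RNA by random-primed reverse transcription and read from both ends. The authors aligned the reads to mm10 with HISAT2 2.0.5 and counted fragments per gene with featureCounts 1.5.0-p3, per the labels; strand setting and treatment of multi-mapping reads were not stated. The deposited counts (14658503 to 18245507 per library) were used as they stand for all tests. The deposited FPKM values were used only to order levels between genes. The authors' own DESeq2 tables, made with DESeq2 1.20.0 (fold changes and p-values), were not used.

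Dex was compared with saline within each cell type by edgeR's quasi-likelihood test (edgeR 4.0.16, R 4.3.3; TMM, filterByExpr, no covariate), with Benjamini-Hochberg adjustment over all genes tested and a threshold of 0.05. The scripts were tested on simulated counts. Group values are mean ± SD over 3 libraries, and p-values measure the spread between pooled libraries. The SE of an edgeR log2 fold change is its absolute value divided by the square root of the test's F statistic. It therefore depends on the prior count: for Gm27252 in somatic cells it was 0.65 at the default and 0.52 with a prior count of 2. Ratios of pooled counts carry exact 95% binomial intervals for counting error only, since reads carried no molecular identifiers. For the likeness ranking, log2(CPM + 0.5) was used over genes that averaged 0.5 CPM or more. The genes named are the 10 chosen ones, fixed lists of targets, relatives and markers, and the genes next to the 10; Hdc, CT010467.1 and the genes of like profile follow from their rank or call. The 10 genes, the lists and the promoter patterns were chosen with earlier results of these data known. Coordinates are those of the count table (GRCm38), and 98.3% of its genes had the same coordinates in GENCODE vM21. Alternatives were RLE scaling, no filter, DESeq2 1.42.0, a replicate block, a fit of all 12 libraries, a prior count of 2 and leaving out each library. Some genes of the lists are not reported here by name.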

Additional observations from a re-analysis of the deposited data

How the results depend on the processing

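The number of the 10 genes called in somatic cells was 1 in the comparison reported and in most alternatives. It was 2 with no low-count filter and without soma saline replicate 1, where Fyb2 joined Gm27252 (range 1 to 2 when a library was left out). The number of all genes called in germ cells, 35, was 420 with no low-count filter, 158 with DESeq2, 64 with all 12 libraries in one fit, and 17 to 81 when a library was left out (17 without germ dex replicate 2 or germ saline replicate 3, 81 without germ dex replicate 1). In somatic cells 1354 genes were called, 803 with all 12 libraries in one fit and 754 to 1881 when a library was left out (fewest without soma saline replicate 3, most without soma dex replicate 3). The causes were not tested. The somatic log2 fold change of Erf, 0.02, turned to -0.03 and -0.02 without soma dex replicates 1 and 2 and to -0.01 without soma saline replicate 1 or 2 (range -0.03 to 0.11). That of Lpin3, -0.11, turned to 0.02 without soma dex replicate 1 and 0.06 without soma saline replicate 2 (range -0.25 to 0.06), and none of these passed the threshold. In germ cells every fold change of the 10 genes kept its sign wherever it was estimated (13 settings, 9 for Kif12). All these settings reuse the libraries that chose the genes, so the germ cell values and calls below are a description. The germ cell call of Lpin3 was lost with the replicate block, with all 12 libraries in one fit and without any 1 of the 6 libraries, that of Gm11639 with all 12 in one fit and without germ dex replicate 2 or 3 or germ saline replicate 1 or 2, those of Gm36634 and Fyb2 without germ dex replicate 2 or germ saline replicate 2 or 3, and that of Kcna5 without germ saline replicate 3. Gm27252 ranged from 5.45 with a prior count of 2, a setting added after seeing the data, to 10.39 without germ saline replicate 3, and Kcna5 from 3.30 with that prior count to 5.28. The smaller prior count that was planned is edgeR's default and was therefore no separate setting. Whether replicate numbers pair dex with saline libraries within a cell type is not stated, and weak correlations of their deviations do not settle it. Libraries with the same number correlated at 0.132, 0.008 and 0.039 in germ and 0.048, -0.01 and 0.027 in somatic cells. Those with different numbers correlated at -0.091 to 0.061 in germ and -0.064 to 0.037 in somatic cells. Between germ and somatic libraries of 1 treatment the same numbers correlated at 0.054 to 0.099 and different ones at -0.061 to -0.01, so that each of the 12 libraries correlated best with its own number, a hint from the data and not from the design. With the replicate block 49 germ and 1520 somatic genes were called, and 1 of the 10 genes in somatic cells. Depth limited Arhgef37, Gm36634 and Gm11639 in somatic cells and Kif12 in germ cells, where too few counts were left to pass the filter.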
